A study of Mus musculus with 6 samples.

Results

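The circular RNAs (circRNAs) described here were the brightest on the arrays in wild type (WT) striatum. They were selected on their own measured level. Of 14236 circRNA probes on the Arraystar Mouse circRNA Array V2, 8516 were well above background on all 6 arrays. These were ranked by the mean level of WT 1 and WT 2, and the 300 highest were taken. A level is the log2 processed signal of the probe minus the 75th percentile of log2 signal on the same array, so that a level of 4 means a signal 4 log2 units above that percentile. The samples were the striata of 3 mice that overexpressed HuD (HuD-OE) and 3 WT littermates, all adult males of the C57BL6 strain. The transgene of the HuD-OE line encodes HuD with a myc tag under the Camk2a promoter, which is active mainly in excitatory forebrain neurons and also in striatal neurons. Before labeling, the RNA was treated with the exonuclease RNAse R, which digests linear RNA. How much linear RNA remained was not measured here. The arrays held no named probe for Elavl4, the gene of HuD, in the annotation used here, so that the transgene could not be checked.

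CircRNAs are closed RNA loops made by back-splicing, in which a downstream splice donor joins an upstream acceptor. They lack free ends, turn over slowly and accumulate in neurons. HuD is a neuronal RNA-binding protein of the ELAV family that binds and stabilizes many transcripts, and the comparison of genotypes asks which circRNA levels differ when it is in excess. Each circRNA was read by one probe, and probes hybridize with unequal strength, so the rank orders probes by brightness and not RNAs by number of molecules. In bulk striatum, fewer cells of a type and less RNA per cell cannot be told apart.

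A host gene was named for 15 of the 300 members (5.0%), against 550 of the 8516 probes above background (6.46%), and 285 members are known here only by their probe number. Listed 60-base sequences exist for the 15 named members. Of these, 8 are printed here, with that of a circRNA just below rank 300. In 7 of the 9, a run of bases is shared with another printed sequence, and capitals mark it. The others are a repeat within 1 sequence and the brightest named member. The first set holds a repeated GAA triplet, with circEzh2 at chr6:47545675-47558294 (minus strand), circSnx10 at chr6:51562017-51588428 (plus strand) and circKif21a, at rank 304, at chr15:90980794-90995633 (minus strand).
circEzh2: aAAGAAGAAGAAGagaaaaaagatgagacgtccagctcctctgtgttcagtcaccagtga
circSnx10: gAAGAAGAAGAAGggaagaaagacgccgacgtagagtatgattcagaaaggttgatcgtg
circKif21a: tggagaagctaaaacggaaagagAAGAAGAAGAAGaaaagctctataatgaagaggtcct
The second set shares a run of 13 bases, with circZfp426 at chr9:20473027-20476478 (minus strand) and circMap1a at chr2:121298596-121299046 (plus strand).
circZfp426: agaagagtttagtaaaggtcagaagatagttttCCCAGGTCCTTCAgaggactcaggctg
circMap1a: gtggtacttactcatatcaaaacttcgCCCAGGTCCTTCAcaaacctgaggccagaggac
The third set is a pair of overlapping spans in Rn45s, at chr17:39843392-39843484 and chr17:39843372-39843448 (both plus strand), which share 16 bases.
circRn45s, rank 78: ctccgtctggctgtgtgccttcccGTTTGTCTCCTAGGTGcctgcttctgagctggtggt
circRn45s, rank 233: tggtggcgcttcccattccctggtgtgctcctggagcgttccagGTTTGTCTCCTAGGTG
The remaining sequences stand alone. The circRNA of XLOC_027457, at chrX:170005573-170008613 (minus strand), holds a run of 21 bases 2 times, in capitals, and circMalat1, at chr19:5798035-5799683 (minus strand), shared no run longer than 7 bases with the other named members and has no capitals.
circXLOC_027457: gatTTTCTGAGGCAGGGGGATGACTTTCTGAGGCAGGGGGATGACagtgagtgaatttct
circMalat1: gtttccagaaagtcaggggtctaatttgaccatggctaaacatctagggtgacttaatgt
The genome build of these coordinates is not given in the sources used here. All 11 named spans whose host gene is in the RefSeq table of GRCm38.p6 lay inside that gene, including that of Adrbk1, which RefSeq calls Grk2.

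The arrays themselves differed. HuD-OE 1, 2 and 3 and WT 1 lay in slide row 1 and were scanned together with WT 2, which lay in row 2, as did WT 3, the single array of the other scan. WT 3 was dim, with a 75th percentile signal of 43.4 against 77.7 to 127 on the other arrays, and 60.3% of circRNA probes were well above background on it against 87.2% to 95.7%. Genotype was therefore partly confounded with the slide row, and the main differences below are also given against WT 1 alone, the WT array of row 1. No spot was saturated. The software marked 42 of the members' values as outlier spots (2.33%), against 0.188% of the values of all circRNA probes, and 19 of the 42 were on HuD-OE 1 and 15 on WT 2.

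The members held most of the circRNA signal. Their summed signal was 80.6%, 68.1% and 60.3% of that of all 14236 circRNA probes on HuD-OE 1, 2 and 3, and 64.6%, 84.4% and 82.4% on WT 1, 2 and 3. Shares of both genotypes overlapped, with WT 1 beside HuD-OE 2 and 3. The median level of the members was 6.35, 5.54 and 4.50 on the HuD-OE arrays and 5.11, 6.83 and 7.24 on the WT arrays. WT 1 again lay inside the range of the HuD-OE arrays, and WT 2 and WT 3 lay above it. Over the same arrays the median of all 8516 probes above background stayed between -0.48 and -0.38.

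A single pattern over the arrays ran through most members. High values on WT 3, WT 2 and HuD-OE 1 went with low values on HuD-OE 3 and WT 1. The first principal component of the row-centered levels held 82.2% of the variance of the members and 60.5% of that of the other 8216 probes above background. The correlation with the members' median profile was above 0.8 for 232 of the 300 (77.3%) and for 11.1% of the other 8216. These 232 had median levels of 6.37, 5.41 and 4.24 on the HuD-OE arrays and 4.999, 7.25 and 7.56 on the WT arrays, a change of over 3 log2 units between HuD-OE 3 and WT 3. The correlation was below 0 for 40 members, whose median levels were 6.25, 5.88 and 5.82 on the HuD-OE arrays and 5.39, 5.01 and 4.50 on the WT arrays. Of the 15 named members, 8 were among these 40 and 2, circAdrbk1 and circPcnx, among the 232. Both sets were drawn from the values shown, so they carry no test.

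**Figure D1:**
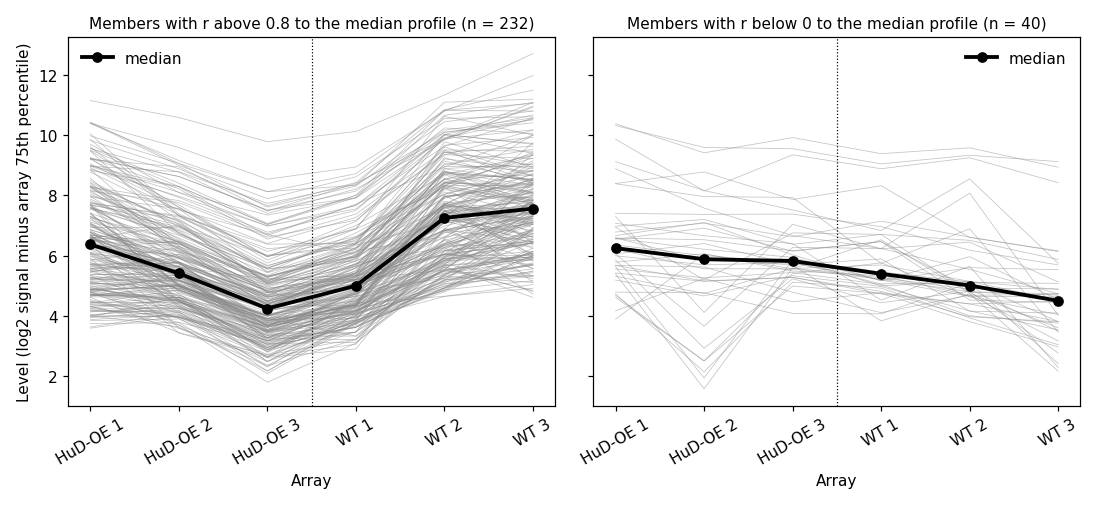
Levels (log2 signal minus the 75th percentile of the array) of members on each array, 1 gray line per member and the median in black, for the 232 members with r above 0.8 to the members' median profile (left) and the 40 with r below 0 (right). On the left the lines fall from HuD-OE 1 to HuD-OE 3 and are highest on WT 2 and WT 3; on the right the median goes from 6.25 on HuD-OE 1 to 4.50 on WT 3.

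The brightest circRNA in WT was ASCRP4005609. Its levels were 11.14, 10.58 and 9.78 on HuD-OE 1, 2 and 3 and 10.11, 11.33 and 12.70 on WT 1, 2 and 3. The genotypes overlapped, and the spread among the WT arrays (SD 1.29, n = 3) was larger than the difference of means. ASCRP4004672, at rank 3, read 10.38, 9.58 and 8.53 on the HuD-OE arrays and 8.94, 10.79 and 11.97 on the WT arrays. ASCRP4006650, at rank 5, read 10.43, 9.06 and 8.12 and then 8.72, 10.84 and 11.49. All 3 followed the common pattern, with r of 0.94, 0.97 and 0.99 to it.

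The probes at ranks 2 and 4 did not. ASCRP4006710 read 11.17, 11.01 and 10.84 on the HuD-OE arrays and 10.42, 10.67 and 10.72 on the WT arrays. The HuD-OE arrays did not overlap the WT arrays and were higher, by a difference of means of 0.40 ± 0.33 (SE) on the log2 scale, which was 0.58 against WT 1 alone. Here and below, the SE is that of limma, which draws the spread of each probe toward that of all probes. The SDs of this probe's own values were smaller, 0.17 among the HuD-OE arrays and 0.16 among the WT arrays. After quantile normalization the difference was 1.11, but under that normalization it was 0.71 without WT 3 and 0.00 against WT 1 alone. ASCRP4012684 read 10.18, 10.16 and 10.05 and then 9.79, 9.92 and 10.16, with an overlap between genotypes. Its SD within a genotype, 0.14, was the smallest of all 300 members. Neither circRNA has a named host gene here.

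Stability between arrays was low for most members. The SD within a genotype, pooled over HuD-OE and WT, had a median of 1.17 over the members, with a range of 0.14 to 2.41, against 0.46 over the other 8216 probes. It was below 0.3 for 6 members. Among the WT arrays the median SD was 1.29 and 218 members exceeded 1, and among the HuD-OE arrays the median was 0.96. WT 2 was above WT 1 for 275 members, by a median of 1.71. WT 3, which had no part in the ranking, was above both for 175 members and below both for 35, and its median difference from the mean of the other two was 1.18. With quantile normalization, which gives every array the same distribution, the median SD of the members was 0.56.

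The order of the members also varied between arrays. Spearman's rho over the 300 members was between 0.59 and 0.82 for pairs of WT arrays, between 0.73 and 0.84 for pairs of HuD-OE arrays, and between 0.39 (HuD-OE 3 with WT 3) and 0.89 (HuD-OE 3 with WT 1) across genotypes, as a description of probes that share 6 arrays. Over the other 8216 probes, which span more levels, rho was between 0.65 and 0.95, and it was lower over the members for 12 of the 15 pairs of arrays. A list of the 300 brightest probes on WT 3 alone shared 251 with the members (83.7% of each list), and that on the 3 HuD-OE arrays shared 275 (91.7%). For single HuD-OE arrays the shared number was between 244 and 270. In all, 199 probes were among the 300 brightest on each of the 6 arrays, and each of the 199 was a member. They included 7 of the 15 named members: circMalat1, circPdia5, both circRn45s, circInpp5f and the circRNAs of XLOC_027457 and XLOC_019302. At the edge of the ranking, rank 300 was ASCRP4010576, with a mean of WT 1 and WT 2 of 4.25, and the next probe was ASCRP4006466, also at 4.25. The first read between 3.27 and 4.92 on the 6 arrays and the second between 2.15 and 6.19.

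The named members from noncoding hosts and unnamed loci lay between ranks 18 and 233. CircMalat1, at rank 18, comes from an abundant nuclear long noncoding RNA, and its levels were 9.86, 8.14 and 9.34 on the HuD-OE arrays and 8.88, 9.24 and 8.42 on the WT arrays. The WT arrays lay within the HuD-OE range. The Rn45s circRNAs come from the precursor of ribosomal RNA. That at rank 78 read 8.58, 6.94 and 6.89 on the HuD-OE arrays and 6.27, 7.75 and 8.14 on the WT arrays, and that at rank 233 read 6.50, 5.29 and 5.63 and then 4.79, 5.13 and 5.53. The genotypes overlapped for both, and their profiles correlated at 0.75 over the 6 arrays. The circRNA of XLOC_027457, an unnamed locus, read 7.61, 7.96 and 7.29 on the HuD-OE arrays and 6.41, 7.43 and 6.77 on the WT arrays. That of XLOC_019302 read 5.59, 5.65 and 4.89 and then 4.34, 5.58 and 5.68. Both overlapped between genotypes, and XLOC_027457 had the smallest SD within a genotype of the named members, 0.44, followed by circRn45s at rank 233 (0.51) and circCalm3 (0.57).

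The named members from genes of enzymes and membrane traffic were led by circPdia5, at rank 42, from a gene of an endoplasmic reticulum disulfide isomerase. It read 9.11, 8.16 and 7.51 on the HuD-OE arrays and 6.83, 8.54 and 5.74 on the WT arrays, with WT 2 inside the HuD-OE range. CircInpp5f, at rank 132, from a phosphoinositide phosphatase gene, read 7.57, 7.19 and 6.09 and then 5.48, 6.89 and 7.58. The genotypes overlapped for both. CircAdrbk1, at rank 214, comes from the gene of a kinase that desensitizes G protein-coupled receptors. It read 3.59, 3.999 and 2.82 on the HuD-OE arrays and 4.52, 5.66 and 5.87 on the WT arrays, so every WT array was above every HuD-OE array. Its values on HuD-OE 3 and WT 2 were outlier spots and were left out of the fit, which gave -1.40 ± 0.60 (SE) on the log2 scale and did not pass the limits below. With the outlier spots kept the difference was -1.88 and passed them, and without WT 3 or against WT 1 alone it was -0.72. CircPcnx, at rank 234, read 4.13, 4.31 and 3.18 and then 4.30, 5.60 and 6.90, and only HuD-OE 2 reached WT 1.

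The named members from genes of the cytoskeleton, calcium signaling and the nucleus lay between ranks 182 and 292. CircDynll2, at rank 259, comes from the gene of a dynein light chain, and read 5.86, 2.93 and 5.23 on the HuD-OE arrays and 4.44, 4.81 and 2.77 on the WT arrays. It had the largest SD within a genotype of the named members, 1.34, followed by circSnx10 (1.23) and circPdia5 (1.15). CircCalm3, at rank 264, from a calmodulin gene, spanned only 62 bases, and read 5.19, 4.66 and 5.33 and then 4.98, 4.16 and 3.54. Both overlapped between genotypes. CircMap1a, at rank 282, from a gene of a microtubule-associated protein, read 5.68, 5.62 and 4.78 on the HuD-OE arrays and 4.11, 4.69 and 3.17 on the WT arrays. Among the named members, it was the only one whose host gene stood in a short list of 15, taken from the genes that the study follows up for HuD. It was higher on every HuD-OE array. CircZfp426, at rank 182, from a zinc finger gene, read 6.66, 7.10 and 6.02 and then 5.17, 5.96 and 4.54, also with no overlap.

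**Figure D2:**
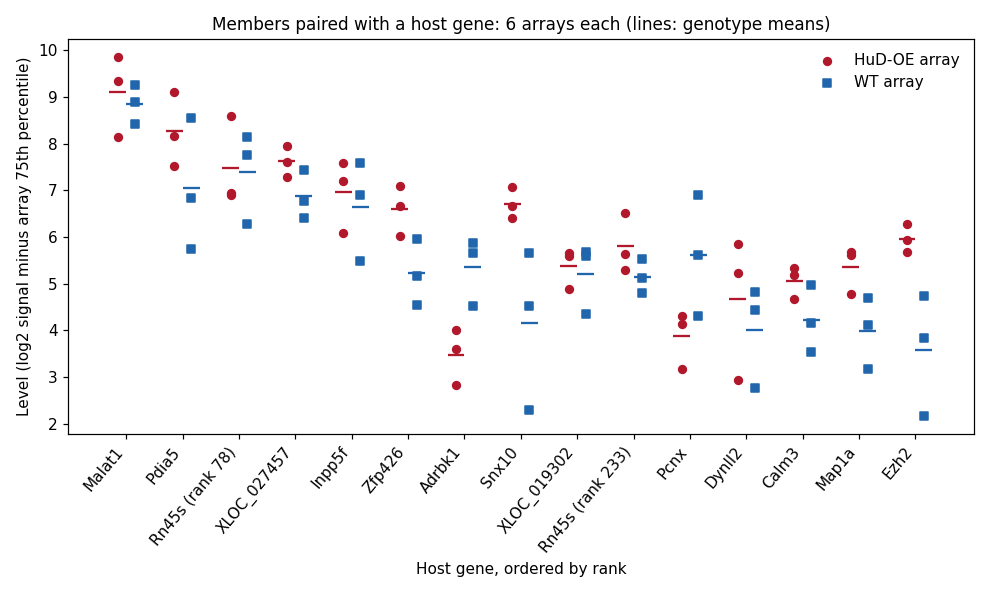
Levels (log2 signal minus the 75th percentile of the array) of the 15 members with a named host gene, in order of rank, on the 3 HuD-OE arrays (red circles) and the 3 WT arrays (blue squares), with a line at each genotype mean. The genotypes do not overlap for Zfp426, Snx10, Map1a and Ezh2, higher in HuD-OE, and for Adrbk1, lower in HuD-OE.

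Host genes were compared with 18 lists of gene groups. Of 344 listed genes, 264 had a named probe, and 5 of those probes were members: circCalm3 (1 of 33 probes above background of calmodulin, kinase and phosphatase genes), circAdrbk1 (1 of 29 of G protein and small GTPase genes), circDynll2 and circMap1a (2 of 25 of cytoskeleton and motor genes) and circEzh2 (1 of 42 of transcription and chromatin genes). No circRNA of 28 probes of glutamate receptor and scaffold genes, of 22 of presynaptic genes or of 35 of RNA-binding and RNA-decay genes was a member, and their best ranks were 384, 555 and 429. For markers of striatal projection neurons, the best rank was 773 among 9 probes. It was 555 among 6 probes of pan-neuronal markers, 565 among 2 of cortical projection neuron markers and 1047 among 2 of astrocyte markers. Oligodendrocyte, microglia and endothelial markers had no named probe, so that the cell types of the members could not be checked. Names come from lists that the authors made by other criteria, so a list with no member says nothing of the 285 unnamed circRNAs. The named members were annotated as exonic in 7 cases (46.7%), against 86.9% of the 535 other named probes above background, and as sense overlapping in 7 cases (46.7%), against 8.60%. Their median span was 3452 bases, against 10907, and their median GC content 48.3%, against 45.0%. GC content and level had a rho of -0.04 over the 550 named probes above background.

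The probe numbers held some sequence information for unnamed members too. All 725 pairs of named probes that follow each other by number stood in the alphabetical order of their listed sequences. The leading bases of an unnamed probe should then lie between those of its named neighbors by number. By this order, 130 of 295 placed members (44.1%) began with C, against 33.5% of the placed probes above background, and 71 of 289 (24.6%) began with CT, against 14.1%. In 37 members the next number up or down was also a member, and the 19 such pairs ranged from near copies to unlike probes. ASCRP4000117 and ASCRP4000118, at ranks 12 and 10, differed by 0.17 at most on any array, with a correlation of 1.00 over the 6. ASCRP4007240 and circPdia5, at ranks 13 and 42, differed by up to 4.66, with a correlation of -0.19.

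From the study's list of circRNAs enriched by immunoprecipitation of HuD, 658 were matched to a probe on these arrays, fewer than the study's text counts. Of these 497 were above background on all arrays and 8 were members: circMalat1, circPdia5, circZfp426, circDynll2, circCalm3, circMap1a and the circRNAs of XLOC_027457 and XLOC_019302. That is 2.67% of the members, against 5.84% of the 8516. The authors' deposited lists of circRNAs changed in HuD-OE, as given here, held 7 members as higher (2.33% of the members, against 0.634% of the 8516) and circAdrbk1 and circPcnx as lower. The 7 were circSnx10, circEzh2, circMap1a, both circRNAs from Rn45s, circInpp5f and the circRNA of XLOC_019302. Of these the last 4 were not past both limits in the comparison given next, with differences of 0.08 and 0.66 for Rn45s, 0.30 for circInpp5f and 0.18 for XLOC_019302. In the same order they were 1.20, 1.01, 1.47 and 1.03 against WT 1 alone and -0.68, 0.27, -0.63 and -0.30 against WT 3 alone, and all but that at 0.66 turned sign without WT 1. After quantile normalization all 4 passed both limits, at 0.91, 1.45, 1.19 and 1.08. Under that normalization they were 0.80, 1.25, 1.16 and 0.94 without WT 3, where all but the first passed both limits. Against WT 1 alone they were then 0.50, 0.76, 0.87 and 0.89, and against WT 3 alone 1.13, 1.85, 1.25 and 1.35. Both deposited lists, of higher and of lower circRNAs, were made on these same arrays, so they are not independent evidence of a direction. They are also a reason why members that differed between genotypes have names.

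HuD-OE was then compared with WT over all 13460 testable circRNAs, of which 299 were members. The remaining member, ASCRP4006765, had outlier spots on 5 of 6 arrays. The ranking used WT 1 and WT 2, so the members' difference is a description and not a test of them. Their median difference was -1.07 on the log2 scale (quartiles -1.42 and -0.57), and 254 of 299 (84.9%) were below 0, against a median of 0.15 and 38.1% over all tested. Past both limits used here, a 1.5-fold difference and a limma p of 0.05 before adjustment, 18 members were higher in HuD-OE (6.02%), against 2.51% of all tested, and 17 were lower (5.69%), against 0.483%. After Benjamini-Hochberg adjustment over all tested circRNAs no member passed, with a smallest limma adjusted p of 0.866. Before adjustment, 35 members had a limma p under 0.05, among 403 of the 13460 tested. All HuD-OE arrays were above all WT arrays for 17 of the 300 members, a smaller share than the 7.37% of all tested. All HuD-OE arrays were below all WT arrays for 8, a larger share than the 1.91% of all tested.

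This median moved with the arrays and the normalization used. It was -0.22 after quantile normalization, -0.61 without WT 3 and 0.29 for HuD-OE against WT 1, within slide row 1. In that row no member was called lower, against 0.178% of all tested, and 5 were called higher, against 1.42%, from a single WT array assumed to vary like the others. Against WT 3 alone, which had no part in the ranking, the median was -1.84. That fit has no WT replicate, so its calls and p-values are not given. WT 3 is 1 array, in its own scan and in row 2, so its genotype, scan and row cannot be told apart. After quantile normalization the median against WT 3 alone was -0.17.

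**Figure D3:**
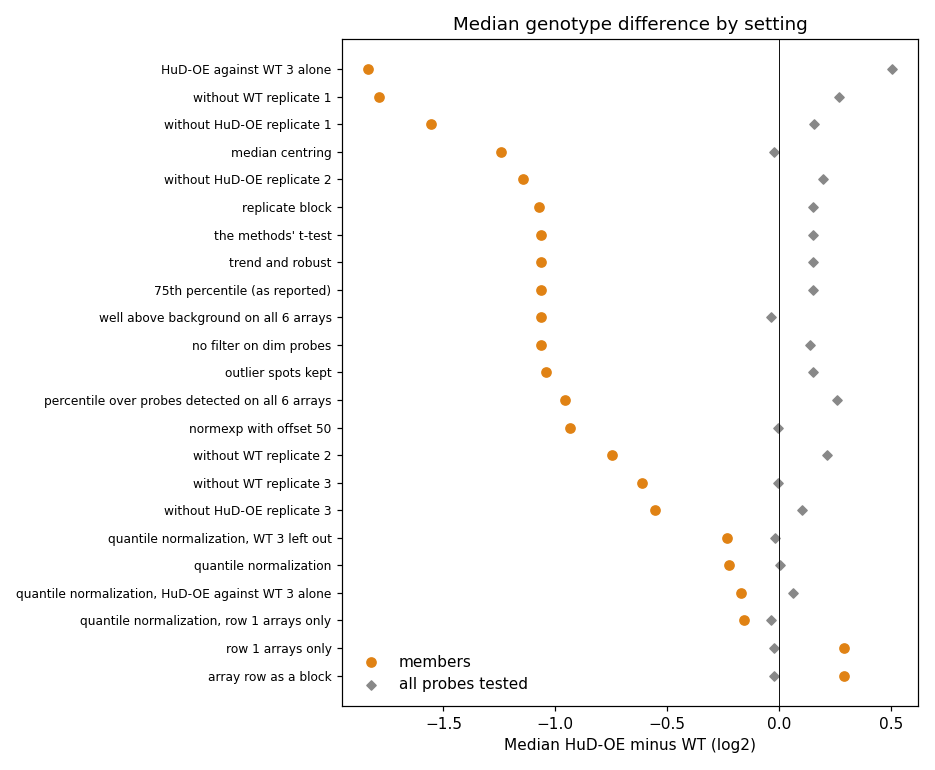
Median HuD-OE minus WT difference (log2, x axis) of the members (orange) and of all probes tested (gray diamonds) under each normalization, filter, test and set of arrays. The members' median ran from -1.84 against WT 3 alone to 0.29 for row 1 arrays or with the row as a block, and lay between -0.23 and -0.16 under quantile normalization.

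The difference was more negative for the members than for dimmer probes. For ranks 1 to 50 the median was -1.14, for the next 50 it was -1.18, for the next 100 it was -1.10, for the last 100 members it was -0.95, for the next 300 probes it was -0.69, for the 600 after those it was -0.43, and for the probes past rank 3000 it was 0.05. Quantile normalization gave -0.32, -0.19, -0.22, -0.21, -0.17, -0.11 and -0.08 for the same ranges. Against WT 1 alone the sign turned for the members, with 0.46, 0.55, 0.29, 0.11, -0.06, -0.08 and 0.03. The share of probes with r above 0.8 to the members' median profile declined with rank in step, from 84.0% of ranks 1 to 50 to 51.0% of the 300 probes after the members and 5.60% of those past 3000. The part of array brightness and slide row in these differences was not tested.

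**Figure D4:**
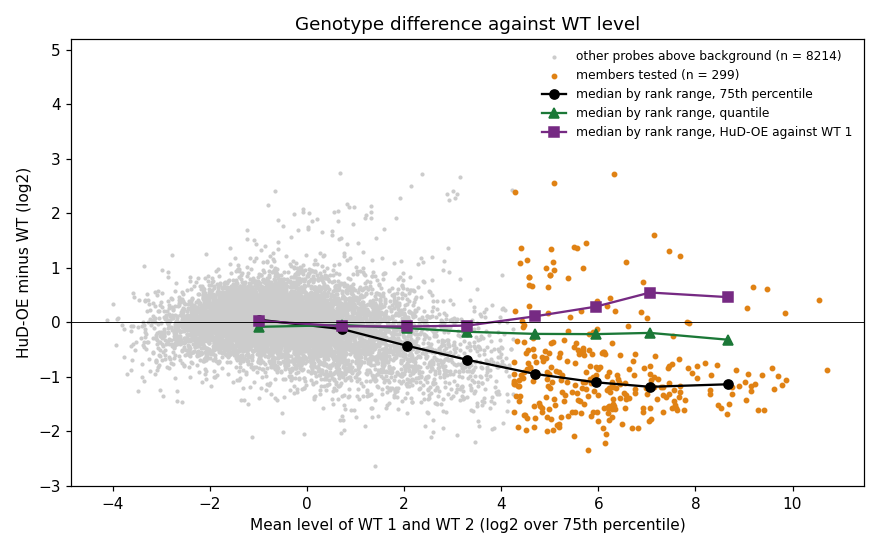
HuD-OE minus WT (log2) against the mean level of WT 1 and WT 2 for the members (orange) and the other probes above background (gray), with medians by rank range for the 75th percentile scaling (black), quantile normalization (green) and HuD-OE against WT 1 (purple). The black medians go from 0.05 in the dimmest range to -1.14 in the brightest, the green to -0.32, and the purple to 0.46.

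All 18 members called higher were among the 40 with a negative correlation to the common pattern, and 15 of the 17 called lower were among the 232 that followed it. The call and the correlation use the same values, and the pattern is itself high on WT 2 and WT 3 and low on HuD-OE 3. This overlap was therefore largely fixed in advance and is a description only. Those called higher differed by 0.81 to 2.72, with a median of 1.13. The 3 largest stood apart. ASCRP4000534, unnamed and at rank 113, read 8.38, 7.96 and 7.93 on the HuD-OE arrays and 5.74, 6.89 and 3.47 on the WT arrays. CircSnx10, at rank 216, from a sorting nexin gene of endosomal traffic, read 7.07, 6.66 and 6.40 and then 4.52, 5.65 and 2.29. CircEzh2, at rank 292, from the gene of the histone methyltransferase of the Polycomb repressive complex, read 6.28, 5.93 and 5.68 and then 3.83, 4.73 and 2.17. Each had its HuD-OE arrays close together and above every WT array, with WT 3 far below WT 1 and WT 2. The differences were 2.72 ± 0.78 (SE, 6.60-fold), 2.56 ± 0.77 (5.88-fold) and 2.38 ± 0.62 (5.22-fold) on the log2 scale, each with a limma adjusted p of 0.866 over all tested and an exact two-sided permutation p of 0.1, the smallest that 3 against 3 arrays allow. Without WT 3 they were 1.78, 1.62 and 1.68, against WT 1 alone 2.35, 2.19 and 2.13, and after quantile normalization 3.37, 3.21 and 3.03. CircEzh2 kept its call by the methods' t-test, which takes each probe alone, and in the fit with the row as a block, and the other two lost theirs in both.

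These 3 circRNAs and circKif21a, from a kinesin gene and just outside the members at rank 304, had nearly the same profile. CircKif21a read 5.85, 5.83 and 5.82 on the HuD-OE arrays and 3.78, 4.66 and 1.78 on the WT arrays. Correlations among the 4 were between 0.99 and 1.00 over the 6 arrays, which is a description only, since they were singled out for how they differed between the arrays. The sequences printed above for circSnx10, circEzh2 and circKif21a share the run of 12 bases in capitals, a GAA repeat. The numbering places the start of ASCRP4000534 between sequences that both begin with AAGAAGA, so it begins with these 7 bases too. The letters AAGAAGAAG were found in 11 of the 726 named sequences (1.52%), and their reverse complement, CTTCTTCTT, in none. All 11 circRNAs differed toward HuD-OE, with a median of 2.11 and a range of 0.59 to 2.56, against a median of 0.30 and 75.8% above 0 in the other 715. Of the 11, 8 came from the deposited list of higher circRNAs, which was chosen on these arrays and holds them in 11.6% of its 69 entries matched here. Every entry of that list differed toward HuD-OE, and within it the median was 2.27 with the letters and 1.89 without. The contrast over all named sequences is therefore largely one between the lists. The other 3, circPak1, circBrwd1 and circDgki, came from the 658 listed as bound by HuD (0.456%). Their differences were 0.59 to 0.79 with overlapping genotypes, against a median of 0.16 in the other 494 of these above background. Over the 6 arrays their profiles correlated with that of circEzh2 at only 0.50, 0.82 and 0.71. The letters were chosen after the values were seen, and the part of the shared run in the signal was not tested.

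**Figure D5:**
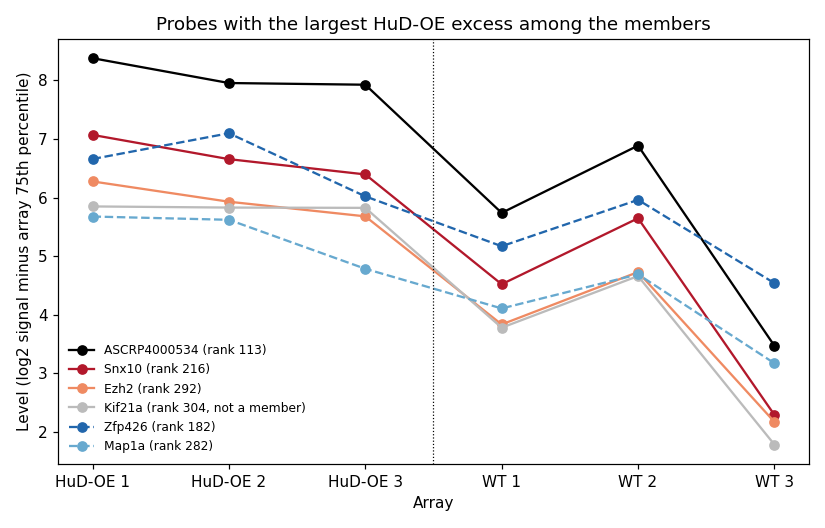
Levels (log2 signal minus the 75th percentile of the array) on the 6 arrays of the 5 members with the largest HuD-OE excess among those called higher with no overlap between genotypes, and of circKif21a, at rank 304. The solid lines, of ASCRP4000534, Snx10, Ezh2 and Kif21a, run in parallel with their lowest point on WT 3, and the dashed lines, of Zfp426 and Map1a, run close to parallel with each other.

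CircZfp426 and circMap1a were the next largest among the members with no overlap. Their differences were 1.37 ± 0.48 (SE) and 1.37 ± 0.48, with limma p of 0.021 and 0.022 before adjustment and 0.866 after it. Without WT 3 they were 1.03 and 0.96, and against WT 1 alone 1.42 and 1.25. Each lost its call under 7 of 22 alternatives. These included, for both, the array row as a block, the methods' t-test, limma with trend and robust settings, and the fits without HuD-OE 1 or HuD-OE 2. CircZfp426 also lost its call without WT 3, and circMap1a against WT 1 alone. The printed sequences of both hold the same 13 bases, and their profiles correlated at 0.98. Of the 105 pairs of named members, 3 shared a run of more than 10 bases: this one, circSnx10 with circEzh2 (r of 1.00) and the pair from Rn45s (r of 0.75). The longest run in any other pair was 9 bases, between circPdia5 and circEzh2. Some pairs with short runs had correlations above that of the Rn45s pair: 0.97 for circMalat1 with circDynll2 (5 bases), 0.97 for circMap1a with circEzh2 and with circSnx10 (4 bases each), and 0.96 for circInpp5f with XLOC_019302 (6 bases).

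Among the members called lower, 3 of the 17 had no overlap between genotypes, and none has a named host gene. ASCRP4007741, at rank 75, read 5.77, 6.51 and 5.34 on the HuD-OE arrays and 6.63, 7.51 and 8.21 on the WT arrays. ASCRP4007502, at rank 274, read 3.63, 4.11 and 2.95 and then 4.11, 4.83 and 6.86. ASCRP4001402, at rank 286, read 3.70, 3.94 and 3.32 and then 4.23, 4.49 and 6.57. WT 1 lay within 0.3 of the highest HuD-OE array in each, and WT 3 was the highest. The differences were -1.57 ± 0.51 (SE), -1.70 ± 0.70 and -1.44 ± 0.62, with a limma adjusted p of 0.866 for each. After quantile normalization they were -0.63, -1.01 and -0.79, and against WT 1 alone -0.76, -0.55 and -0.58. Without WT 3 they were -1.20, -0.91 and -0.70. They lost their call under 9, 12 and 13 of 22 alternatives. These included, for all 3, WT 1 alone, the array row as a block, the methods' t-test, limma with trend and robust settings, and the fit without HuD-OE 3. ASCRP4007502 and ASCRP4001402 also lost theirs without WT 3, HuD-OE 1 or HuD-OE 2, ASCRP4007502 without WT 2, and ASCRP4007741 and ASCRP4001402 after quantile normalization. All 17 lay between -1.97 and -1.35, and of the 2 that have a named host and stood in the deposited list of lower circRNAs, circPcnx was called, at -1.73 ± 0.66 (SE), and circAdrbk1 was not. CircPcnx was -1.08 without WT 3 and -0.43 against WT 1 alone, and lost its call under 9 of 22 alternatives, these, the methods' t-test and the fits without WT 2 or HuD-OE 3 included.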

How the data were processed

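Per the labels, RNA from the striatum (3 HuD-OE and 3 WT mice) was digested with RNAse R, amplified, labeled with Cy3 and hybridized to 6 one-color arrays. The authors deposited the output of Feature Extraction 11.0.1.1 for each array. Its processed intensity is the linear spot signal after background correction, and no scaling between arrays had been done. Their notes name limma, without its role. A pair of deposited tables holds the authors' comparison (fold changes, p-values, mean intensities). Only circRNA names, coordinates, types and sequences were read from them, and 24 columns of per-sample values were left unused. Host genes came from both tables, which win on conflict (0 conflicts), and from the study's list of circRNAs enriched by HuD immunoprecipitation, of which 658 matched a probe here.

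Levels were log2 processed intensity minus the 75th percentile over the non-control spots of the array. Spots flagged as outliers counted in the ranking but were left out of the fit. Probes that 3 or more arrays measured well above background were compared with lmFit and eBayes of limma 3.58.1 (R 4.3.3), two-sided, with no block and Benjamini-Hochberg adjustment over all tested. A circRNA was called at a 1.5-fold difference with p under 0.05 before adjustment. Single values were tested by an exact permutation test over arrays. Nothing in the labels ties a replicate number to a litter or day, and same-numbered arrays of the genotypes did not deviate together (correlations of -0.16, -0.20 and -0.56), so numbers do not pair arrays. The series text counts 3 mice per genotype.

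Named circRNAs were the 5 brightest members, all members with a host gene, the 5 largest and 5 most negative of the called members whose genotypes did not overlap (3 existed on the negative side), and rank 300 with its neighbor. The members and lists were chosen with earlier results of these data known. circKif21a, the 3 other circRNAs with the GAA letters and the pairs of neighboring probe numbers were named after their values were seen. Alternatives were other scalings (quantile, median, percentile over detected probes, normexp with an offset of 50 on the median spot intensity), filters, outlier spots kept, blocks for replicate number and slide row, the methods' t-test, a trend with robust settings, each array left out, and other rankings. The fits on row 1 arrays alone, the combinations of quantile normalization with fewer arrays, and rankings on single HuD-OE arrays were chosen after seeing the data. An array has no read depth, so precision is set by having 3 arrays of each genotype. Plots used Python 3.11.15 and matplotlib 3.10.9.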

Additional observations from a re-analysis of the deposited data

How the results depend on the processing

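The counts of members past both limits depended on the processing, for causes that were not tested. The shares in parentheses are those of all tested circRNAs, first higher and then lower, under the same setting. With the replicate block, 8 members were called higher and 17 lower (1.43% and 0.357%), and the median difference was -1.07. With the array row as a block, 2 were higher and 0 lower (0.55% and 0.126%), and with row 1 arrays only 5 and 0 (1.42% and 0.178%). The median was then 0.29 in both, reversed from -1.07. The methods' t-test called 11 and 0 (2.01% and 0.149%), and trend with robust settings 3 and 0 (2.24% and 0.29%). With normexp it was 22 and 64 (0.944% and 2.24%). HuD-OE against WT 3 alone called 18 and 139 (22.1% and 10.5%). With quantile normalization, row 1 arrays gave 5 and 1 (1.44% and 0.297%), leaving out WT 3 gave 13 and 2 (1.81% and 0.238%), and WT 3 alone gave 42 and 37 (8.44% and 8.26%). Leaving out each array in turn gave 3 (without HuD-OE 1) to 18 (without WT 1) members higher and 0 (without HuD-OE 3) to 183 (without WT 1) lower. All tested circRNAs had 1.46% and 0.364% without HuD-OE 1, 1.34% and 0.0372% without HuD-OE 3, and 5.72% and 5.33% without WT 1. Without HuD-OE 2 it was 11 and 11 (2.65% and 0.624%), without WT 3 it was 11 and 1 (2% and 0.201%), and without WT 2 it was 8 and 3 (2.58% and 0.186%). The fit on the arrays of the larger scan is the one without WT 3. The median difference stayed below 0 under every other alternative, between -1.84 and -0.16. The median SD within a genotype was 1.17, and 0.56 after quantile normalization. Between 244 and 300 of the members stayed among the 300 brightest under 14 other rankings. Of 550 alternative values of the 25 named members, none changed the sign of a call, 61 lost a call and 37 gained one. Where a fit leaves 1 WT array, it is assumed to vary like the others. Unequal hybridization between probes limits any comparison of levels.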
